A study of Mus musculus with 4 samples.

Results

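The genes described here are 7 imprinted genes: Meg3, Rian, Dlk1, H19, Peg3, Igf2 and Cdkn1c. They were chosen by name with earlier results of the same libraries known, so their levels below are descriptions. Of the 27998 genes in the files, 6 of the 7 were found by symbol. Rian was matched neither by symbol nor by identifier and was not analysed here. An imprinted gene is transcribed mainly from the copy inherited from 1 parent, and a shared control element often sets this for a whole cluster of neighbouring genes. Meg3 and Rian are noncoding RNAs expressed from the maternal copy of the Dlk1-Dio3 cluster, and Dlk1, a membrane protein of the Notch ligand family, is expressed from its paternal copy. Many of these genes are active in the fetus and become quiet in most tissues after birth.

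Single-cell RNA was measured in lung cells of the alveolar type 2 (AT2) lineage, which secretes surfactant, taken from Sftpc-creER;Rosa26-mTmG mice. In these mice tamoxifen, given in 4 doses, switches on a heritable membrane GFP in cells that use the Sftpc promoter, so cells descended from AT2 cells keep the label; all 4 groups carried both alleles and received tamoxifen. The sort took GFP-positive cells without CD45, a leukocyte marker, or CD31, an endothelial marker, and 3 mice were pooled per group. The groups were PBS at day 0 and bleomycin (0.8 U/kg into the trachea) at day 30, in mice aged 3 or 12 months, with 1 library each. Treatment and day of harvest therefore cannot be told apart, and no difference has a replicate check.

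After filtering, 2394, 2745, 2624 and 2993 cells remained in the 3-month PBS, 12-month PBS, 3-month bleomycin and 12-month bleomycin libraries. Cells with Sftpc at 5% or more of their unique molecular identifiers (UMIs) are called Sftpc-high, and the rest Sftpc-low. Sftpc-high cells numbered 2308, 2570, 2299 and 2450 in that library order, and Sftpc-low cells 86, 175, 325 and 543. All 10 AT2 markers examined, Sftpc among them, were detected in the summed Sftpc-high cells of every library. They were also all detected in the summed Sftpc-low cells of every library, so detection does not set the classes apart. The bleomycin libraries were deeper: median counts per Sftpc-high cell were 4563.5 and 5137.5 with PBS, against 8552 and 12520 with bleomycin. Levels are in CPM, which scales a gene's summed counts to a fixed total for the class of cells. Ranges in brackets are exact 95% intervals for counting alone, without the spread between mice. Those of summed counts also leave out the spread between cells, since UMIs of 1 cell enter as separate draws. They are too narrow where few cells hold most of the counts, and calls made from them share this limit. A gene is called higher or lower when its level differed at least 2-fold, its interval left out 1 and the libraries compared held at least 10 counts of it. A gene at 0 in 1 library is called by its interval alone, and its fold is then given as a lower bound against 3 counts. Pairs of libraries shared between 7 and 20 cell barcodes.

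The Meg3 promoter is shown beside those of Dlk1, its neighbour in the cluster, and Peg3, which lies on another chromosome, so that the sequence upstream of the gene with the highest ratio can be read against a neighbour that was also seen with bleomycin at 12 months and a gene that was lower there. Each line gives the 250 bases before the RefSeq start, 5′ to 3′ on the gene's strand, from the RefSeq table for GRCm38.p6. Capitals mark 2 motifs, searched on both strands: TGACGTCA, the cyclic AMP response element, which reads the same on both strands, and TATAAA, the TATA box. They do not overlap each other in these windows, and in Meg3 a match of TATAAA on each strand forms 1 run.
Meg3: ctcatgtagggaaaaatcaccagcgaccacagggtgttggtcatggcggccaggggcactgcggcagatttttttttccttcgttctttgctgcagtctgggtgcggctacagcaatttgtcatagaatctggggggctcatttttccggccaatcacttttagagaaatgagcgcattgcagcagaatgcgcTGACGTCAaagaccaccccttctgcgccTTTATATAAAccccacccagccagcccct
Dlk1: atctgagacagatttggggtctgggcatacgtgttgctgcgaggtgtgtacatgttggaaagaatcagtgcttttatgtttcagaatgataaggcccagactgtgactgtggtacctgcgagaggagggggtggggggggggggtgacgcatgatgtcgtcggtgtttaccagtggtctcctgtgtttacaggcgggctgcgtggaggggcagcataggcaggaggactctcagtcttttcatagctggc
Peg3: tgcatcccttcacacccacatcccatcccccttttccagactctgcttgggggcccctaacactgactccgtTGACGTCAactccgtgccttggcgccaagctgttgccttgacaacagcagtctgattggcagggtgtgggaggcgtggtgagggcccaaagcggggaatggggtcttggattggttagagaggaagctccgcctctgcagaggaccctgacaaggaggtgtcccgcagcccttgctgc
These windows are chr12:109540746-109540995 on the plus strand (Meg3), chr12:109452573-109452822 on the plus strand (Dlk1) and chr7:6730420-6730669 on the minus strand (Peg3). The Meg3 window shown held TGACGTCA from 57 bases before the start. Its run of TATAAA matches began 29 bases before the start, with the match on the other strand first and that on the gene's strand ending the run. Peg3 held TGACGTCA from 178 bases before its start, with no TATAAA, and Dlk1 held neither. A second Meg3 window in the table (chr12:109545148-109545397, plus strand), at a start inside the gene, held neither motif and 0 CpG. Of 32851 windows of this length, 1.55% held TGACGTCA and 12.4% held TATAAA. The windows held 10 (Meg3), 8 (Dlk1) and 8 (Peg3) CpG dinucleotides, with a median of 6 over all windows. Of the 7 genes, 5 had a window in the table, with 9 windows in all. A match describes the letters and says nothing of binding.

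Meg3 is a long noncoding RNA gene on chromosome 12 (109541001 to 109571726, plus strand, GRCm38, GENCODE M21), 30.7 kb long. In Sftpc-high cells it had 1 count in the 3-month PBS library, 15 in the 12-month PBS library, 755 in the 3-month bleomycin library and 2479 in the 12-month bleomycin library. These are levels of 0.0918 CPM (0.00232 to 0.511), 1.13 (0.632 to 1.86), 36.2 (33.7 to 38.9) and 77.8 (74.8 to 80.96). The bleomycin libraries stood far above the PBS libraries at both ages, and no intervals overlapped between treatments. The ratio of bleomycin to PBS was 395 (70.7 to 15618) at 3 months, where it rests on 1 PBS count, and 69.0 (41.7 to 123) at 12 months. Between ages, the level was 12.3-fold higher (1.89 to 518) at 12 than at 3 months with PBS, and 2.15-fold higher (1.98 to 2.33) with bleomycin. At equal depth (3000 UMIs per cell) the PBS difference was under the minimum of counts for a call, with a log2 ratio of 1.86 against 3.08. The bleomycin difference fell short of 2-fold, at a log2 ratio of 0.94 against 1.102, when Sftpc-high meant Sftpc at 10% or more. These 4 comparisons share libraries and are not independent of each other.

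**Figure D1:**
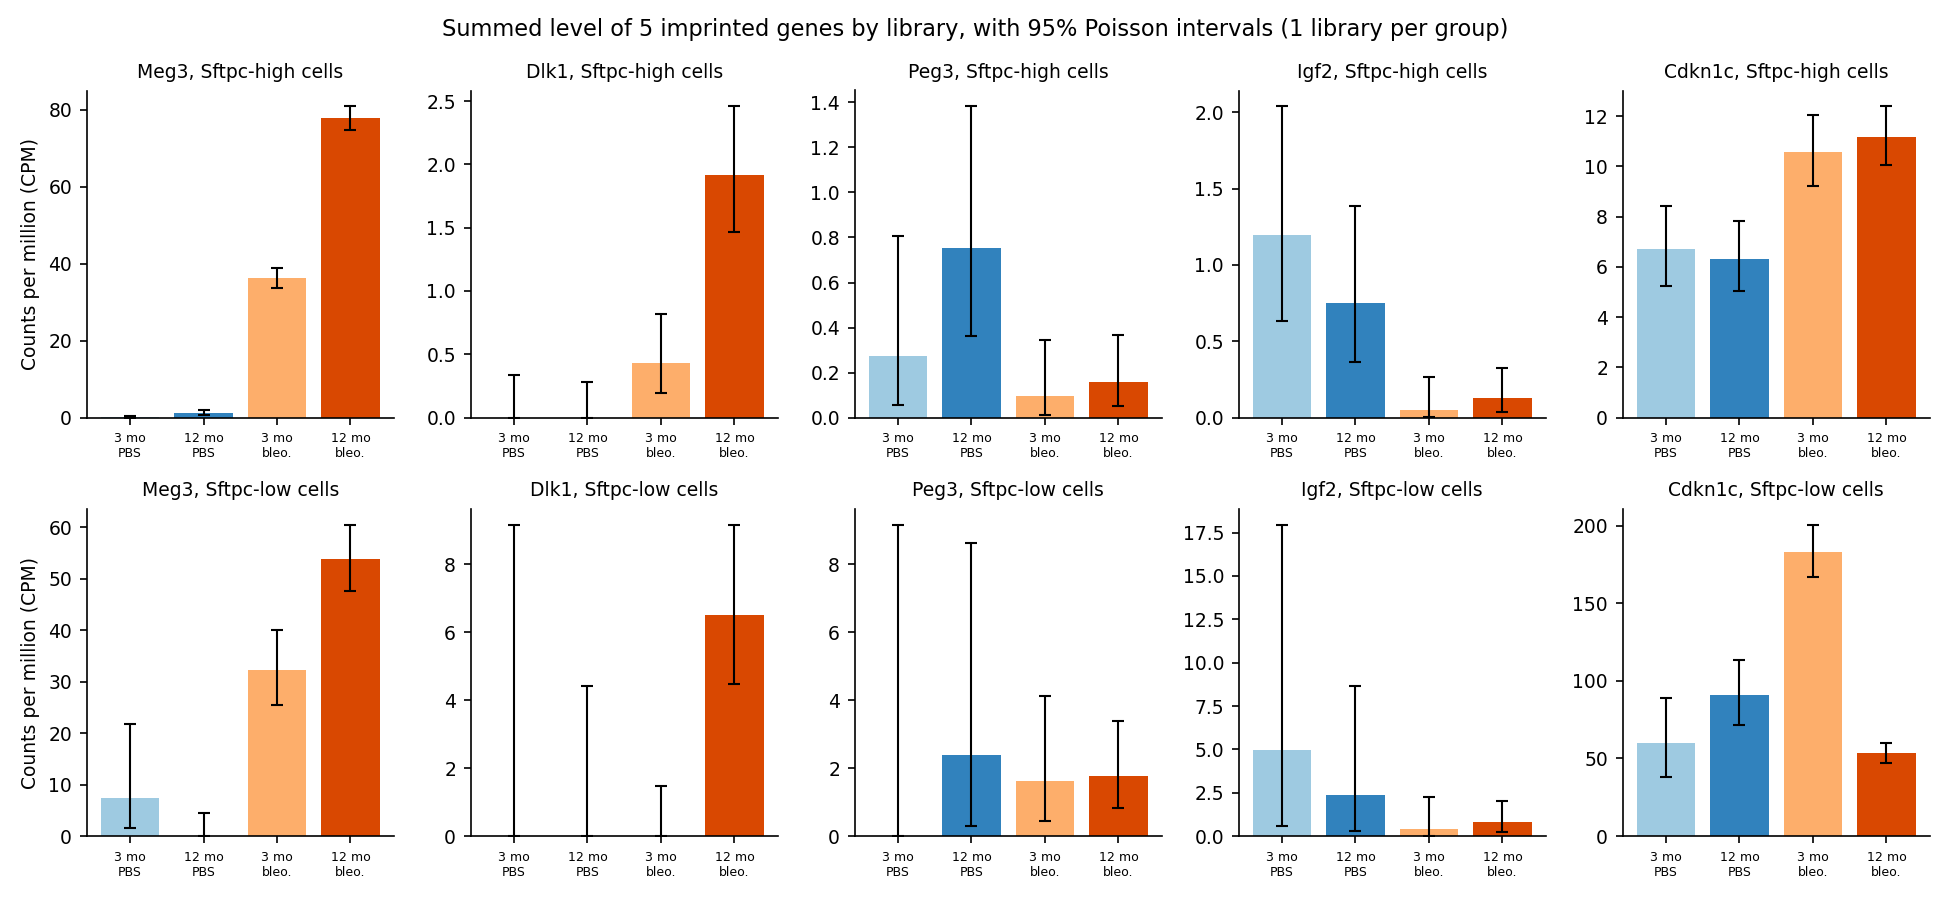
Bars give the summed level in CPM (vertical axis, linear from 0, a separate scale in each panel) of Meg3, Dlk1, Peg3, Igf2 and Cdkn1c in the 4 libraries, with Sftpc-high cells above and Sftpc-low cells below; error bars are 95% Poisson intervals. Meg3 reached 36.2 and 77.8 CPM in Sftpc-high cells of the bleomycin libraries, and Igf2 was lower there than with PBS.

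Meg3 was held by a minority of Sftpc-high cells. Cells with at least 1 Meg3 UMI numbered 1 of 2308 with PBS at 3 months and 9 of 2570 with PBS at 12 months. With bleomycin they numbered 159 of 2299 at 3 months and 304 of 2450 at 12 months. As shares these are 0.0433%, 0.350%, 6.92% and 12.4% in the same order. Depth raises such shares, so each cell was also thinned to 3000 UMIs, which left out 356, 242, 55 and 0 shallower cells. The thinned shares were 0.0512% (0.00130 to 0.285), 0.172% (0.0468 to 0.439), 4.10% (3.32 to 5.005) and 7.31% (6.31 to 8.41), Clopper-Pearson. The order of the libraries was the same at equal depth.

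Within the bleomycin libraries, the cells that held Meg3 differed widely in how much they held. At 3 months 74 cells had 1 UMI, 44 had 2 to 4, and 41 had 5 or more. At 12 months these numbers were 108, 71 and 125. Cells with 5 or more UMIs carried 75.4% of the Meg3 counts at 3 months and 87.5% at 12 months, and no PBS cell reached 5. The highest cell held 67 UMIs at 3 months and 115 at 12 months, against 1 and 3 in the PBS libraries. Mean Meg3 UMIs per cell that held any were 4.75 at 3 months and 8.15 at 12 months. Called doublets (56 and 72 barcodes of these libraries) included 53 of the 2299 and 60 of the 2450 Sftpc-high cells. Among the Sftpc-high cells with Meg3 they included 1 of the 159 and 5 of the 304.

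**Figure D2:**
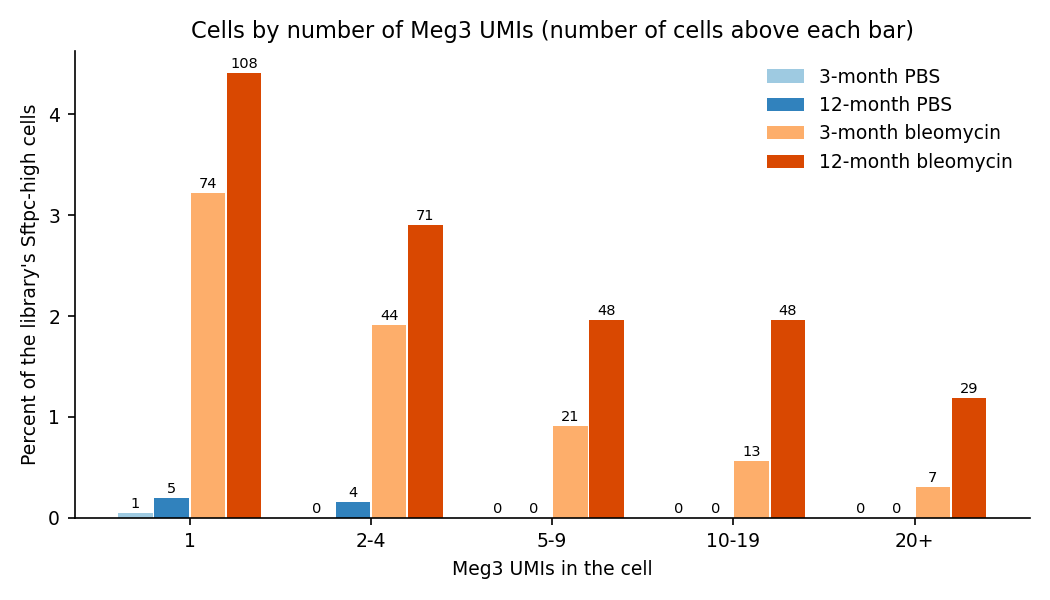
Bars give the percent of each library's Sftpc-high cells (vertical axis) with 1, 2 to 4, 5 to 9, 10 to 19, and 20 or more Meg3 UMIs (horizontal axis), with the number of cells above each bar. Cells with 5 or more UMIs appear with bleomycin at 3 months (41 cells) and 12 months (125 cells) and are at 0 in both PBS libraries.

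Markers of other cell types also moved between these libraries in Sftpc-high cells. The summed level of 9 macrophage markers was 2.02, 20.8, 22.9 and 114 CPM in the 3-month PBS, 12-month PBS, 3-month bleomycin and 12-month bleomycin libraries, with 3, 8, 8 and 9 of them detected. The 10 mesenchymal markers summed to 1.65, 2.26, 7.15 and 8.67 CPM, with 3, 4, 8 and 10 detected, and the 8 neuroendocrine markers to 2.48, 5.64, 5.42 and 4.80 CPM, with 4, 5, 5 and 7 detected. The 6 mesothelial markers summed to 0.0918, 0.677, 5.42 and 5.02 CPM, with 1, 3, 6 and 4 detected. The 5 B cell markers summed to 26.8, 27.2, 42.8 and 146 CPM, with 4, 4, 5 and 5 detected, and the 6 T or NK markers to 0, 3.99, 2.35 and 18.4 CPM, with 0, 6, 6 and 6 detected. Every cell holding a UMI of a mesenchymal, mesothelial, endothelial or neuroendocrine marker was also left out. The log2 ratio of Meg3 was then 9.33 at 3 months and 5.84 at 12 months, against 8.04 and 6.06 with all cells. At 3 months the PBS side of this ratio holds at most 1 Meg3 count. This filter kept 2083 of 2308 PBS cells at 3 months and 2215 of 2570 at 12 months. Of the bleomycin cells it kept 1318 of 2299 and 1305 of 2450. With every cell holding a macrophage, T, NK or B marker left out, the log2 ratio of Meg3 was 7.66 and 6.56. That alternative was chosen after the data were seen, and it kept 223 of 2450 cells of the 12-month bleomycin library.

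Cells with and without a Meg3 UMI after thinning to 3000 UMIs per cell, called Meg3-positive and Meg3-zero here, were set side by side within each bleomycin library. They numbered 92 and 2152 cells at 3 months and 179 and 2271 at 12 months. The Meg3-zero cells include cells that held Meg3 before thinning. AT2 markers summed to 265192 CPM in Meg3-positive and 258867 in Meg3-zero cells at 3 months, a ratio of 1.02 (1.02 to 1.03). At 12 months the values were 225983 and 257532 CPM, a ratio of 0.877 (0.872 to 0.883). AT1 markers, of the flat gas-exchange cell, had ratios of 0.874 (0.807 to 0.945) and 0.881 (0.832 to 0.931). Transitional alveolar markers such as Krt8 and Cldn4 had ratios of 0.766 (0.684 to 0.856) at 3 months and 0.987 (0.929 to 1.05) at 12 months. Injury-activated AT2 markers such as Lcn2 had ratios of 1.08 (1.02 to 1.14) and 0.970 (0.939 to 1.001). These alveolar lists thus differed by less than 1.5-fold between Meg3-positive and Meg3-zero cells. Club cell markers, of the secretory airway cell, had ratios of 0.639 (0.594 to 0.686) and 0.786 (0.752 to 0.821). Mesenchymal markers had higher ratios, 3.26 (1.14 to 7.70) and 4.23 (2.24 to 7.58), which rest on 6 counts in 2 cells and 16 counts in 7 cells. In each library 1 cell held most of these, 5 of the 6 and 9 of the 16 counts, and at 2000 UMIs the 12-month ratio was 8.12.

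Of 4377 genes at 20 CPM or more in Meg3-positive or Meg3-zero cells of each library, 13 had a ratio of 2 or more in both libraries, and 4 fell short of the Meg3-zero level by as much in both. Cthrc1, which encodes a secreted collagen-associated protein, was at 43.5 against 18.0 CPM at 3 months and 67.0 against 24.7 CPM at 12 months. Gpc3, a cell-surface proteoglycan, was at 57.97 against 20.9 CPM and 65.2 against 28.3 CPM. Serpinf1, a secreted serpin, was at 54.3 against 22.8 CPM and 70.8 against 33.0 CPM. The others of the 8 highest were Fam179b, Slc18b1, Man2b1, Ttc39a and Cep164, with 6 to 13 counts in Meg3-positive cells. The lowest were Sec14l3, Mfsd2a, Itch and Gramd2, with 1 to 6 counts there. A gene could pass the 20 CPM minimum through 1 class alone, and 1 count in Meg3-positive cells is 3.62 CPM at 3 months and 1.86 at 12 months. Fam179b, Slc18b1, Man2b1, Ttc39a and Cep164 passed only through Meg3-positive cells, where they are higher, as did Cthrc1 at 3 months. Nothing is therefore read from the numbers of higher and lower genes. These names depend on the thinning: another random draw gave 7 higher and 7 lower genes and shared Gpc3 and Serpinf1 with the 8 highest, and 2000 UMIs per cell gave 46 and 24 and shared 0.

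The other transcripts of the Dlk1-Dio3 region were then read in the same Sftpc-high cells. This region spans 828 kb from Dlk1 to Dio3 and had 8 genes in the files. Mirg, a noncoding host of microRNA genes 189 kb downstream of the Meg3 start (109729764 to 109749460), had 0, 0, 3 and 37 counts in the 3-month PBS, 12-month PBS, 3-month bleomycin and 12-month bleomycin libraries. B830012L14Rik, a noncoding gene 155 kb downstream (109695586 to 109702587), had 0, 0, 8 and 22 counts. Both were thus seen with bleomycin and in neither PBS library. At 3 months both were under the minimum of counts for a call, and the intervals of their ratios included 1. Their absence with PBS at that age cannot be told apart from the lower depth of that library. At 12 months Mirg was at least 5.15-fold and B830012L14Rik at least 3.06-fold higher with bleomycin, with a floor of 3 counts in the PBS library. Rtl1, a retrotransposon-derived protein gene expressed from the paternal copy, had 0 counts in all 4 libraries, as did Gm26945, which lies within Rian. Gm26906, which overlaps the 3′ end of Meg3 on the other strand, had 0, 0, 4 and 5 counts; whether the counting used strand is not given in the sources used here, so its reads and those of Meg3 may not be separable. Dio3, which encodes a thyroid hormone deiodinase, had 4, 6, 3 and 0 counts. B830012L14Rik, Gm26906 and Gm26945 were named after their values were seen.

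**Figure D3:**
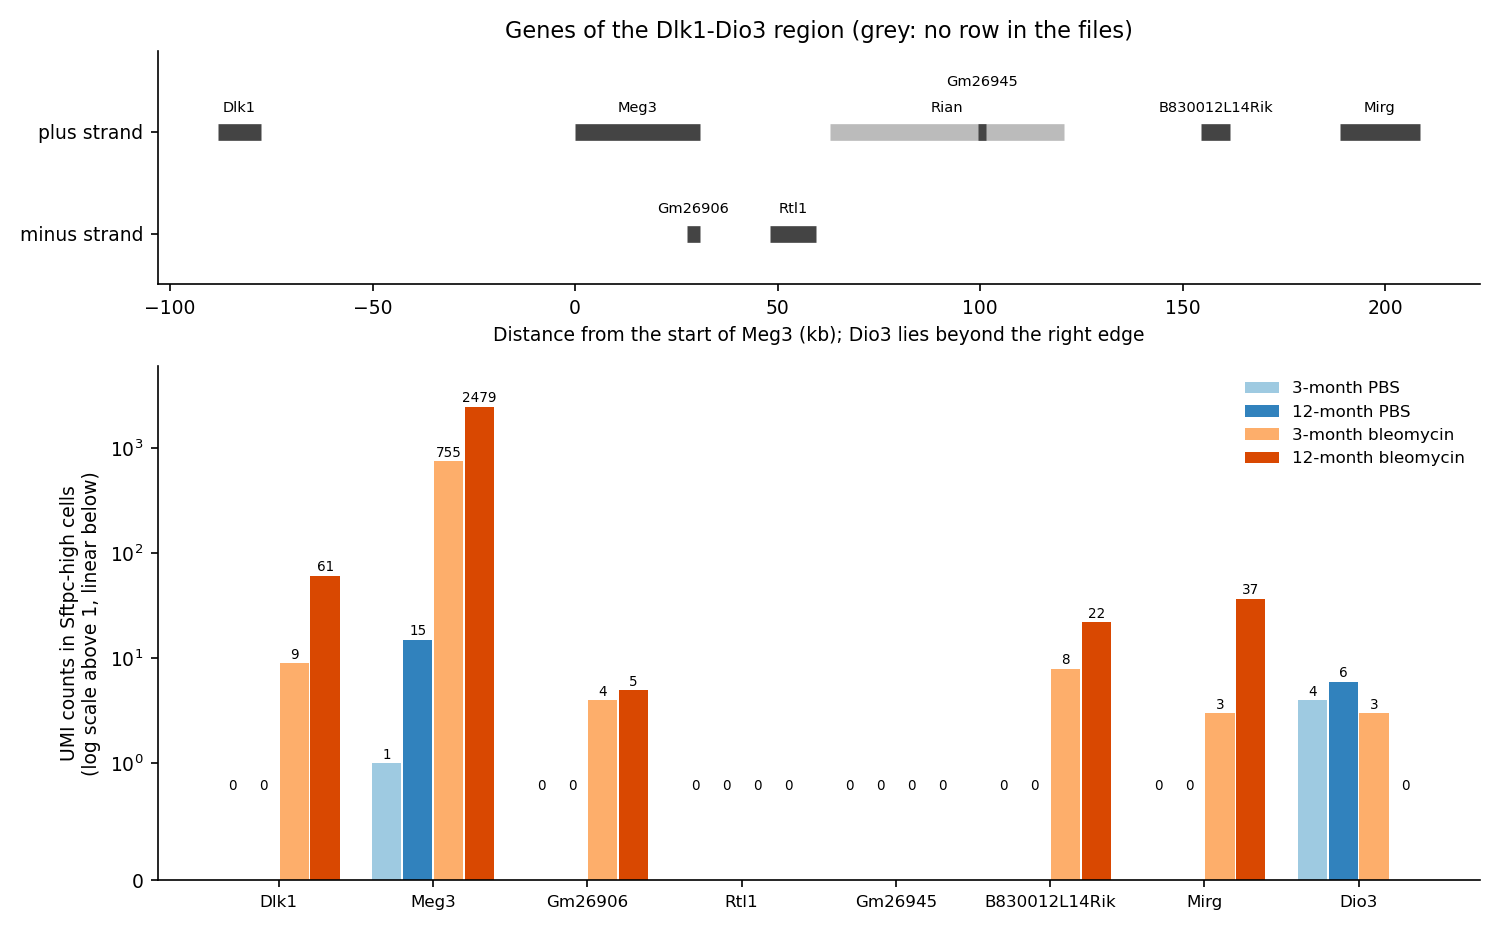
The upper panel places the genes by distance from the Meg3 start in kb (horizontal axis) on the plus and minus strands, with Rian in grey. The lower panel gives UMI counts in Sftpc-high cells (vertical axis, log scale above 1) in the 4 libraries, where Meg3 with 755 and 2479 counts stands above Dlk1, Mirg and B830012L14Rik in the bleomycin libraries.

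Mirg and B830012L14Rik lay almost entirely in cells that also held Meg3. All 8 cells with B830012L14Rik at 3 months (100%, 63.1 to 100) and all 16 at 12 months (100%, 79.4 to 100) held Meg3. For Mirg the numbers were 3 of 3 cells at 3 months (100%, 29.2 to 100) and 26 of 29 at 12 months (89.7%, 72.6 to 97.8). Over all Sftpc-high cells the share with Meg3 was 6.92% and 12.4%. Cdkn1c, from another cluster, gave 15 of 179 cells (8.38%, 4.77 to 13.4) and 29 of 228 (12.7%, 8.69 to 17.8), which is close to those shares. Among cells with at least 10 Meg3 UMIs, 2 of 20 held Mirg at 3 months and 21 of 77 at 12 months, and 4 of 20 and 11 of 77 held B830012L14Rik. These shares are at full depth. Sftpc-high cells with a Meg3 UMI at full depth were somewhat deeper than the rest. Their medians were 10425 against 8441 counts at 3 months and 13698.5 against 12285 at 12 months.

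**Figure D4:**
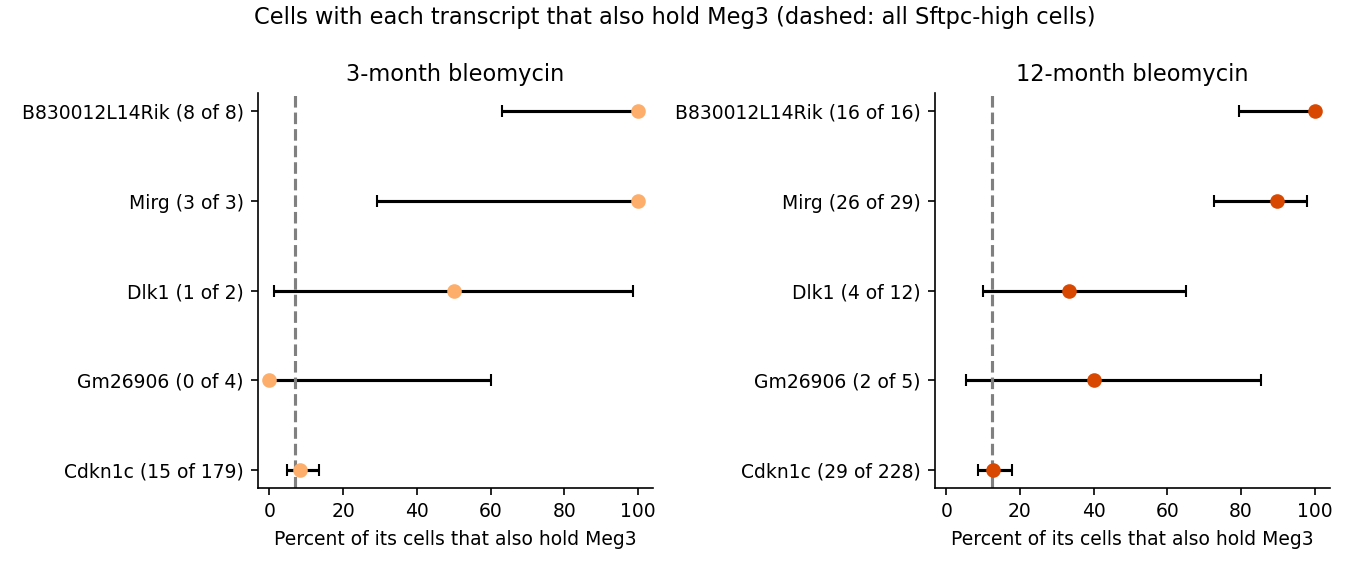
Points give the percent (horizontal axis) of the cells with each transcript that also held Meg3, in the 3-month (left) and 12-month (right) bleomycin libraries; bars are 95% Clopper-Pearson intervals and the dashed line is the share of all Sftpc-high cells with Meg3. B830012L14Rik stands at 100% in both libraries and Mirg at 100% and 89.7%, while Cdkn1c lies at 8.38% and 12.7%.

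Dlk1 (109452823 to 109463336 on chromosome 12, plus strand) starts at -88.2 kb from the Meg3 start. Its Sftpc-high counts were 0 and 0 in the PBS libraries at 3 and 12 months, and 9 and 61 in the bleomycin libraries. The bleomycin levels were 0.432 CPM (0.198 to 0.820) and 1.92 CPM (1.47 to 2.46). At 12 months this is at least 8.48-fold higher with bleomycin, and between the bleomycin libraries it is 4.43-fold higher (2.19 to 10.2) at 12 months. That difference between ages reversed, to a log2 ratio of -0.59, without cells holding a macrophage, T, NK or B marker. Without called doublets it was 3.16 against 2.08, and the log2 ratio with bleomycin at 3 months was 2.24 against 3.31. The counts came from few cells: 2 cells at 3 months, with 5 and 4 UMIs, and 12 cells at 12 months. Of the 61 counts at 12 months, 46 came from 1 cell that also held 51 Meg3 UMIs. Without that cell the 12-month level was 0.471 CPM on 15 counts, near the 0.432 CPM at 3 months. Without its own highest cell the 3-month level was 0.192 CPM on 4 counts. The difference between ages thus rests largely on 1 cell. Meg3 was present in 1 of the 2 and 4 of the 12 Dlk1 cells (33.3%, 9.92 to 65.1). With the 10 cells richest in Dlk1 left out of each library, the log2 ratio at 12 months fell from 5.68 to 1.06. In Sftpc-low cells Dlk1 had 0, 0, 0 and 33 counts, from 4 cells with 18, 13, 1 and 1 UMIs that held no Meg3. They had 9, 8, 8 and 7 of 10 AT2 markers and 11, 9, 12 and 5 of 12 transitional alveolar markers. The last of them also had 5 of 6 mesothelial and 3 of 10 mesenchymal markers, which were at 0 in the other 3. In that library all 543 Sftpc-low cells held at least 3 AT2 markers, and 391 held at least 3 transitional alveolar markers. Such marker counts therefore do not name the type of these cells.

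Igf2, a fetal growth factor on chromosome 7 (142650766 to 142666816, minus strand), went the other way. Its counts in Sftpc-high cells were 13 and 10 with PBS at 3 and 12 months, and 1 and 4 with bleomycin. Every such cell held 1 UMI. The level was 24.9-fold lower (3.73 to 1056) with bleomycin at 3 months and 5.99-fold lower (1.73 to 26.2) at 12 months. At 3000 UMIs per cell both were under the minimum of counts for a call, with log2 ratios of -3.90 and -3.53. H19, the noncoding RNA that shares its control element with Igf2 (142575529 to 142578143), had 0 counts in both classes of every library, which, at a limit of 3 cells, allows an H19 UMI in up to 0.130% of the 2308 Sftpc-high cells with PBS at 3 months and 0.122% of the 2450 with bleomycin at 12 months. This limits cells with a UMI and not cells that express H19.

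Peg3, a paternally expressed zinc finger gene on chromosome 7 (6703892 to 6730431, minus strand), had 3 and 10 counts with PBS at 3 and 12 months and 2 and 5 with bleomycin, each in a cell of its own. At 12 months it was 4.79-fold lower (1.49 to 17.9) with bleomycin, and at 3 months it was under the count minimum. At 3000 UMIs per cell it was under that minimum at both ages. Its log2 ratios there were -1.79 and -3.77 at 3 and 12 months, against -1.42 and -2.19. Without cells holding a macrophage, T, NK or B marker the 12-month log2 ratio was -0.20. Peg3 and Igf2 together show how few counts these calls rest on: no Sftpc-high library held more than 13 of either.

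Cdkn1c encodes the cell cycle inhibitor p57 (chromosome 7, 143458339 to 143461050, minus strand). Its Sftpc-high counts were 73 and 84 with PBS and 220 and 356 with bleomycin, at 3 and 12 months. These are 6.70 CPM (5.25 to 8.42), 6.32 (5.04 to 7.83), 10.6 (9.21 to 12.1) and 11.2 (10.0 to 12.4). The bleomycin level was 1.58 times (1.20 to 2.08) the PBS level at 3 months and 1.77 times (1.39 to 2.27) at 12 months, above counting error but under the fold needed for a call. It passed 2-fold in some settings, with a log2 ratio of 1.02 at 3 months at 2000 UMIs per cell, and of 1.45 at 12 months without cells holding a macrophage, T, NK or B marker, against 0.65 and 0.82 with all cells. Its ratios between ages were 0.943 (0.681 to 1.31) with PBS and 1.06 (0.892 to 1.26) with bleomycin. At 3000 UMIs per cell, 1.74%, 1.76%, 3.03% and 2.49% of cells held it in the 3-month PBS, 12-month PBS, 3-month bleomycin and 12-month bleomycin libraries. Unlike Meg3, it was spread thinly: 157 of 179 cells with bleomycin at 3 months and 182 of 228 at 12 months held 1 UMI.

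Over the members in Sftpc-high cells, bleomycin against PBS at 3 months gave 1 higher (Meg3) and 1 lower (Igf2) of 3 with enough counts, where 7.29% of all genes counted were called higher and 4.44% lower. At 12 months 2 were higher (Meg3, Dlk1) and 2 lower (Igf2, Peg3) of 5, against 12.5% and 5.33% of all genes. For age, 1 of 4 was higher at 12 months with PBS (Meg3) and 0 were lower, against 2.51% and 2.77%. With bleomycin 2 of 3 were higher at 12 months (Meg3, Dlk1) and 0 lower, against 5.88% and 1.99%. Because the members were chosen with such values known, nothing is read from these shares. In 15 alternative settings of the processing the log2 ratio of Meg3 with bleomycin was never below 6.99 at 3 months or 5.62 at 12 months.

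In Sftpc-low cells, which mix other cells with AT2 cells of low Sftpc, Meg3 had 3, 0, 80 and 272 counts in the 3-month PBS, 12-month PBS, 3-month bleomycin and 12-month bleomycin libraries. The levels were 7.46 CPM (1.54 to 21.8), 0 (up to 4.41), 32.2 (25.5 to 40.1) and 53.7 (47.5 to 60.5). Meg3 was thus present in this class with bleomycin too, with overlapping intervals between the classes at 3 months and a lower level than in Sftpc-high cells at 12 months. Without the highest cell of each library the Sftpc-low levels with bleomycin were 18.1 and 46.8 CPM. A single cell with at least 3 neuroendocrine markers held 35 of the 80 counts at 3 months, and 5 such cells, all with Meg3, held 103 of the 272 at 12 months. All 3 counts with PBS at 3 months lay in 2 of the 4 cells with at least 3 mesenchymal markers. Sftpc-low cells with at least 3 macrophage markers, a cell type taken here as one that should lack Meg3, gave 0 of 39 cells with a Meg3 UMI with bleomycin at 3 months, where a limit of 3 cells allows up to 7.69% (median depth 5404), and 9 of 236 at 12 months (3.81%; median depth 7742.5). Those 9 cells held 59 counts, 33 of them in 1 cell. Thinned to 3000 UMIs, the latter share was 1.69% (0.464 to 4.28). In that library the thinned share was 4.24% (2.70 to 6.29) over all Sftpc-low cells and 7.31% in Sftpc-high cells. Sftpc-high cells there with at least 3 macrophage markers held Meg3 in 31 of 181, with a thinned share of 10.5% (6.44 to 15.9). Macrophage markers thus did not set apart cells without Meg3.

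Cdkn1c in Sftpc-low cells had 24, 76, 455 and 270 counts in that library order, or 59.7, 90.9, 183 and 53.3 CPM. These levels were above those of Sftpc-high cells in every library. Cells with at least 3 ciliated markers, a cell type of the airway, held 21 of the 24, 66 of the 76, 348 of the 455 and 169 of the 270 counts, and 1 cell alone held 146 at 3 months with bleomycin. Igf2 had 2, 2, 1 and 4 counts and Peg3 0, 2, 4 and 9 in these cells. By the same call, Meg3 and Cdkn1c were higher with bleomycin at 3 months (2 of 2 members counted, against 5.68% of all genes called higher and 3.88% lower). At 12 months Meg3 and Dlk1 were higher of 4 (against 6.33% and 9.27%). With PBS 0 of 1 was called between ages (against 5.28% and 3.31%), and with bleomycin Dlk1 was higher and Cdkn1c lower at 12 months of 4 (against 6.78% and 9.71%). Fewer cells of a type and less RNA per cell cannot be told apart in these sums.

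Imprinted genes were also read from a list of 80 symbols, which includes the 7 members. Of these symbols 77 were in the files, and many are imprinted in some tissues only. In Sftpc-high cells 6 were higher and 6 lower with bleomycin at 3 months of 49 counted (12.2% each, against 7.29% and 4.44% of all genes), with a median log2 ratio of -0.00 against 0.02 over all 12764 genes. At 12 months 8 were higher and 6 lower of 51 (15.7% and 11.8%, against 12.5% and 5.33%), with a median of 0.21 against 0.13 over 13563 genes. The list as a whole therefore did not move in 1 direction. Dcn, Gatm, Meg3 and Qpct were called higher at both ages, Igf2, Rasgrf1, Slc38a4 and Zrsr1 lower at both, and 0 were called in opposite directions. For age with PBS, 2 were higher and 0 lower of 46 (4.35% and 0%, against 2.51% and 2.77%). For age with bleomycin, 6 were higher and 2 lower of 52 (11.5% and 3.85%, against 5.88% and 1.99%). These counts include the members, which were chosen with such values known. Without the members, bleomycin against PBS gave 5 higher and 5 lower of 46 at 3 months, and 6 and 4 of 46 at 12 months. For age they were 1 and 0 of 42 with PBS, and 4 and 2 of 49 with bleomycin. The shares of all genes beside them are those given above.

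Among those called higher, Dcn, the collagen-binding proteoglycan decorin, had 0, 1, 36 and 64 counts in Sftpc-high cells, at least 6.28-fold higher at 3 months and 26.7-fold (4.62 to 1071) at 12 months. Dcn is also 1 of the 10 mesenchymal markers, whose sums are given above, and its part as a trace of other cells was not tested. Gatm, an enzyme of creatine synthesis, had 0, 3, 10 and 61 counts, at least 1.74-fold higher at 3 months and 8.48-fold (2.77 to 42.3) at 12 months. Qpct, a glutaminyl cyclase, had 29, 31, 146 and 438 counts, 2.63-fold (1.76 to 4.07) and 5.90-fold (4.09 to 8.78) higher. Qpct is thus the best-counted of the 3. Mest, a hydrolase-like gene, had 0, 0, 11 and 4 counts.

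Among those called lower, Slc38a4, an amino acid transporter, had 151, 155, 88 and 59 counts, 3.28-fold (2.51 to 4.32) lower at 3 months and 6.30-fold (4.64 to 8.65) lower at 12 months. Rasgrf1, a guanine nucleotide exchange factor for Ras, had 32, 66, 16 and 54 counts, 3.82-fold (2.04 to 7.46) and 2.93-fold (2.01 to 4.28) lower. Peg10, a retrotransposon-derived gene, had 22, 18, 10 and 29 counts and was 4.21-fold (1.91 to 9.95) lower at 3 months; at 12 months its ratio was 0.672 (0.361 to 1.29).

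**Figure D5:**
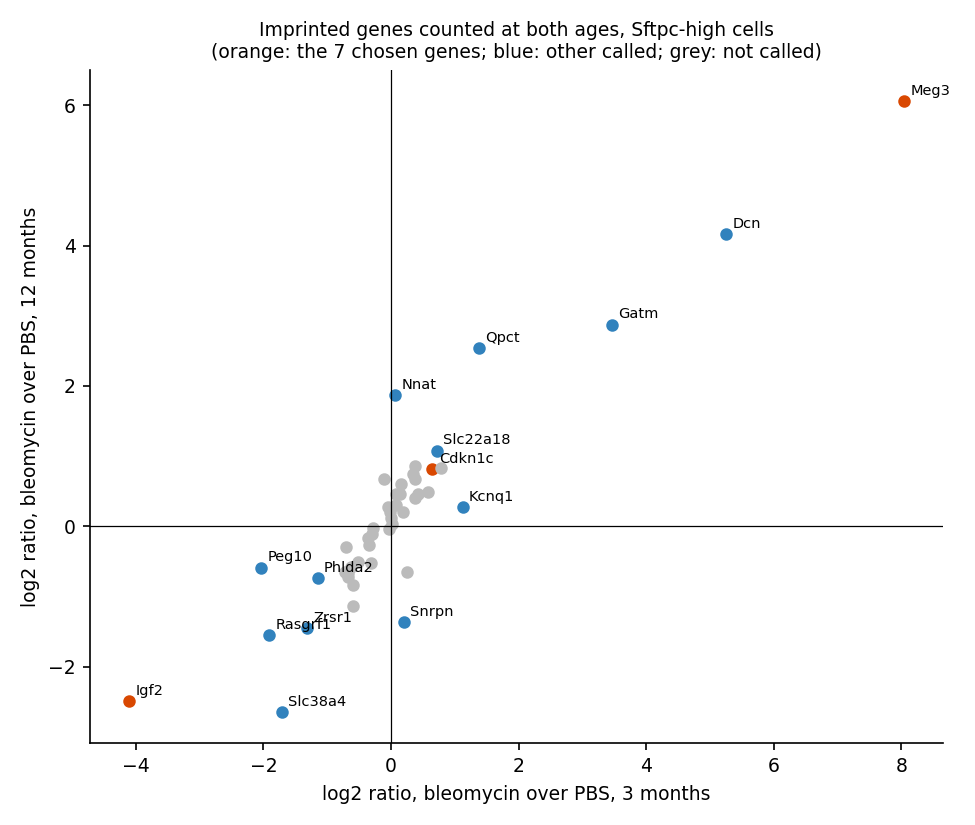
Points are 47 imprinted genes with enough counts at both ages, by the log2 ratio of bleomycin to PBS in Sftpc-high cells at 3 months (horizontal axis) and 12 months (vertical axis); orange marks chosen genes, blue other called genes and grey genes not called. Meg3 lies farthest to the upper right, at 8.04 and 6.06, and Igf2 at the lower left.

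Over the 8 groups of library and Sftpc class, the genes whose log2(CPM + 1) was most like that of Meg3 were Ndufv2 (Pearson r = 0.98), Nup43, Ptgr1, Ergic2, Trappc1, Tmub2, Ddost and Tgm1, among 11851 genes. These groups share libraries and depth, so the value is a description. Ndufv2, a subunit of respiratory complex I, was at 144 and 146 CPM in Sftpc-high cells with PBS and 180 and 187 CPM with bleomycin, a far smaller difference than that of Meg3.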

How the data were processed

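Cells were droplet-sequenced with a 10x Genomics 3' kit, per the labels' protocols. The deposited values are UMI counts per gene and barcode; Cell Ranger, Seurat 3.2.2 and mm10 are named in the submitters' processing notes. Whether the counting used strand is not given in the sources used here. Barcodes under 500 genes or above 20% mt- UMIs were dropped. Counts were summed by library and Sftpc class (Python 3.11.15, pandas 2.3.3, numpy 2.4.6; intervals from scipy 1.17.1, figures from matplotlib 3.10.9). In Sftpc-high cells 1 count equals 0.0918, 0.0752, 0.0480 and 0.0314 CPM (3-month PBS, 12-month PBS, 3-month bleomycin, 12-month bleomycin). Log2 ratios add 0.5 counts. Doublets were scored with Scrublet (scanpy 1.11.5) at 0.8% per 1000 barcodes and kept. No test between groups was made, each being 1 library. Of 27998 identifiers, 98.7% were found in GENCODE M21. Members and lists were chosen with earlier results of these data known. Named genes were all members, the 12 list genes with the largest called ratio, the 8 most like Meg3 (at 100 or more counts), and the 8 highest and 4 lowest between Meg3-positive and Meg3-zero cells, leaving out mt-, Rpl, Rps, globin, immunoglobulin, Xist, Y-linked, Gm and Rik genes from the last 2 kinds.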

Additional observations from a re-analysis of the deposited data

How the results depend on the processing

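No paired analysis was possible because the groups compared share only replicate number 1. Each comparison was recomputed under 15 alternatives, 2 of them chosen after seeing the data (cells with macrophage, T, NK or B markers left out, and the 10 cells richest in a gene left out). The log2 ratio of Meg3 with bleomycin ranged from 6.99 to 9.56 at 3 months and from 5.62 to 10.57 at 12 months, the last with the 10 richest cells left out, which empties the PBS library of Meg3. Between the bleomycin libraries it ranged from 0.94 (Sftpc at 10% or more) to 1.42 (10 richest cells left out), with 1.32 at 2000 UMIs per cell and 1.38 without macrophage, T, NK or B marker cells. There the log2 ratio of Dlk1 was -0.59, the reverse of 2.08, with 223 cells left at 12 months. Low counts limit the other members. Members called lower with bleomycin were 0 at 3 months at 3000 and at 2000 UMIs, at a minimum of 20 counts and without the 10 richest cells. At 12 months they were 0 in those 4 settings and without macrophage, T, NK or B marker cells, and 1 without mesenchymal, mesothelial, endothelial or neuroendocrine marker cells. Members called higher were 2 at 3 months at 2000 UMIs or with no minimum on counts, and 1 at 12 months at 2000 UMIs or without the 10 richest cells. For age with PBS they were 0 at 3000 and 2000 UMIs, at 20 counts and without the richest cells. For age with bleomycin they were 1 at Sftpc of 10% or more, at 2000 UMIs, and without macrophage, T, NK or B marker cells or the richest cells. List genes called higher at 3 months were 3 at both depths and without mesenchymal and like cells, and lower 3 at both depths; higher at 12 months they were 4 at 2000 UMIs and without macrophage and like cells. With PBS, list genes higher at 12 months were 1 at both depths and at 20 counts, and lower 1 at 2000 UMIs, 2 with no minimum and 1 without macrophage and like cells. With bleomycin, higher were 3 at 2000 UMIs and 2 without macrophage and like cells, and lower 0 at 3000 UMIs and without macrophage and like cells, and 1 at 2000 UMIs, at 20 counts, without doublets and without mesenchymal and like cells. At 2000 UMIs Meg3 was in 0% of cells with PBS at 3 months, 2.91% with bleomycin at 3 months and 6.0% at 12 months. Genes 2-fold higher and lower in Meg3-positive cells were 46 and 24 at 2000 UMIs and 7 and 7 in another draw, also chosen after seeing the data. The cause of these changes was not tested. Another scaling moved all log2 ratios by at most 0.10.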

Other observations

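Nnat, an imprinted gene for a small membrane protein named after its values were seen, had 435 and 481 counts in Sftpc-high cells with PBS at 3 and 12 months, and 872 and 4205 with bleomycin. It was 3.65-fold higher (3.32 to 4.02) with bleomycin at 12 months, and its ratio at 3 months was 1.05 (0.933 to 1.18). Snrpn, from the Prader-Willi region and also named after its values were seen, had 90, 256, 198 and 238 counts in the 3-month PBS, 12-month PBS, 3-month bleomycin and 12-month bleomycin libraries. It was 2.58-fold lower (2.15 to 3.09) with bleomycin at 12 months and had a ratio of 1.15 (0.893 to 1.49) at 3 months. Between ages, Nnat was 3.15-fold higher (2.93 to 3.40) at 12 months with bleomycin, and Snrpn was 2.33-fold higher (1.83 to 3.00) at 12 months with PBS.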
